A study of Homo sapiens with 4 samples.

Results

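A set of 8 genes of sphingosine-1-phosphate (S1P) signalling was examined in GATA2/eGFP-positive endothelial cells with and without GFI1: the receptor genes S1PR1, S1PR2 and S1PR3, the sphingosine kinase genes SPHK1 and SPHK2, the lyase gene SGPL1, the phosphatase gene SGPP1 and the transporter gene SPNS2. They were chosen by name from the S1P pathway, and all 8 were found among the 19912 genes of the count table. The cells were endothelial cells derived from H1, an established human embryonic stem cell line. One group was wild type at GFI1 (WT, 2 libraries) and the other was GFI1 knockout (GFI1-KO, or the knockout, 2 libraries). The number of knockout clones, the edited part of GFI1 and the day of differentiation are not given in the labels.

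S1P is a signalling lipid made inside cells when a sphingosine kinase phosphorylates sphingosine. Endothelial cells export it through SPNS2, and it then acts on G-protein-coupled receptors, of which S1PR1 is the main endothelial type and is known for supporting vessel stability and barrier function. Inside the cell, S1P is either returned to sphingosine by phosphatases or cleaved irreversibly by the lyase.

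GFI1-KO replicate 1 was far shallower than the other libraries, with 146584 counts against 2239214 to 2417410. One count in it equals 6.62 CPM (the count relative to the TMM-scaled total of its library), against 0.42 to 0.447 CPM in the other 3. A level of 3 counts, used as the floor for a gene at 0, was 19.9 CPM in it and 1.26 to 1.34 CPM elsewhere. GFI1 itself was at 58.5 and 58.3 CPM in WT against 19.9 and 19.6 CPM in the knockout, the latter on 3 and 44 counts. GATA2, the gene behind the sorting reporter, was at 293 and 252 CPM in WT against 139 and 124 CPM in the knockout. The groups thus did not overlap for either gene, as for 41.2% of all tested genes in either direction. Both genes also passed as lower in the knockout with edgeR. The log2 fold change was -1.57 for GFI1 (edgeR adjusted p = 0.0215) and -1.09 for GATA2 (edgeR adjusted p = 0.0376). Of all tested genes, 0.185% were called lower at an adjusted p under 0.05. All 9 endothelial markers (CDH5, PECAM1, KDR, TEK, TIE1, ESAM, CLDN5, ERG and VWF) had counts in every library. Their summed level was 5460 and 5700 CPM in WT against 6670 and 8130 CPM in the knockout. Most of that sum was KDR, at 2990 and 3290 CPM in WT against 3700 and 4970 CPM in the knockout. PECAM1 alone had a log2 fold change below 0 (-0.33), at 443 and 388 CPM in WT against 344 and 324 CPM in the knockout. Of the 9 endothelial markers, 0 passed the test with edgeR, limma-voom or DESeq2. An unadjusted edgeR p under 0.05 was found for 5, beside 9.35% of all tested genes. The 9 mesenchymal and smooth muscle markers summed to 1690 and 1060 CPM in WT against 1070 and 1260 CPM in the knockout, most of it from the collagen genes COL1A1 (424 to 700 CPM over the 4 libraries) and COL3A1 (332 to 802 CPM). The smooth muscle actin gene ACTA2 was at 31.1 to 99.4 CPM, and DCN had 0 counts except for 2 in GFI1-KO replicate 2. The 6 pluripotent markers summed to 724 and 757 CPM in WT against 603 and 560 CPM in the knockout, mostly from LIN28A and DPPA4. The 7 epithelial and neural markers summed to 602 and 422 CPM in WT against 219 and 522 CPM in the knockout, mostly from KRT8 and KRT18. The 10 haematopoietic markers summed to 250 and 247 CPM in WT against 185 and 247 CPM in the knockout, nearly all from LAPTM5, and the pan-leukocyte gene PTPRC and the globin genes HBG1, HBG2 and HBE1 had 0 counts in every library. ITGA2B, a megakaryocyte and early haematopoietic integrin gene in that list, had 17 and 46 counts in WT against 0 and 4 in the knockout (log2 fold change -2.98, edgeR adjusted p = 0.0893).

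S1PR1 was the single S1P gene that passed the test, and it was higher in GFI1-KO. S1PR2 and S1PR3 had similarly large upward values that did not pass, while SPNS2, by far the most abundant of the 8 per length, differed little. Of the 8 genes, 7 had enough counts to be tested, 1 rose, 0 fell and 6 did not pass; SPHK1 was too low to test. A gene was called when its edgeR quasi-likelihood p, adjusted over all 11380 genes tested, was under 0.05. That rule called 0.958% of all tested genes in either direction, 0.773% as higher and 0.185% as lower. A fit without 1 library takes its spread from the remaining pair and assumes that the lone library of the other group varies like it. On those terms 2 S1P genes, S1PR1 and S1PR3, passed without the shallow GFI1-KO replicate 1, where 3.18% of all genes did. Without GFI1-KO replicate 2 the count was 0 (2.36% of all genes), without WT replicate 1 it was 0 (0.534%) and without WT replicate 2 it was 1 (0.833%). The log2 fold change of GFI1-KO over WT was above 0 for 7 of the 7 tested S1P genes, with a median of 0.622. Over all tested genes the median was -0.0235 and 47.5% were above 0. The count filter bears on this set. S1PR2 passed it through its GFI1-KO libraries (19.9 and 6.68 CPM, against 3.13 and 0.839 CPM in WT), which favours a value above 0. SPHK1, which the filter left out, was at -0.125 (SE 0.988) when fitted with no low-count filter.

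**Figure D1:**
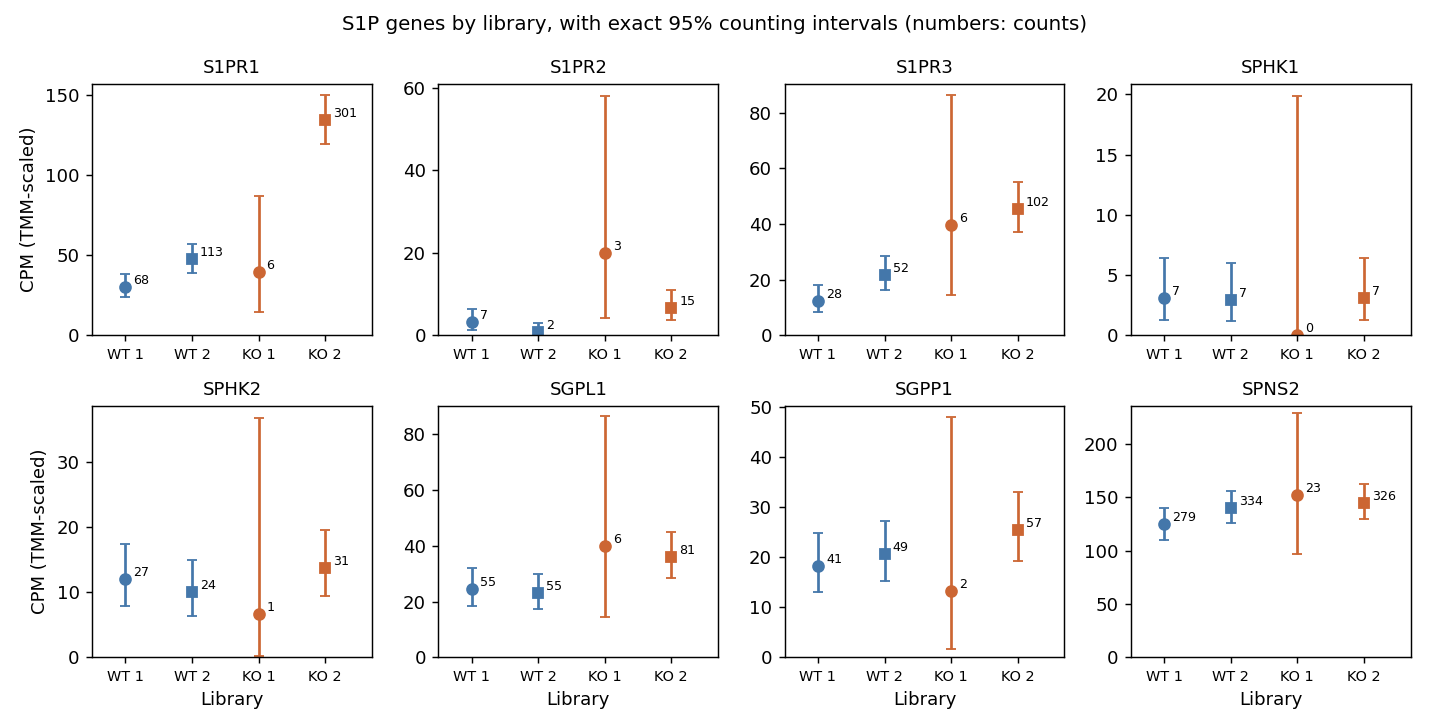
TMM-scaled CPM of each of the 8 S1P genes (vertical axes, a separate scale for each gene) in the 4 libraries (WT in blue, GFI1-KO in orange; circles replicate 1, squares replicate 2), with the raw count beside each point and exact 95% counting intervals; at 0 counts the bar reaches the floor of 3 counts. S1PR1 is high in GFI1-KO replicate 2 alone, S1PR3 is above WT in both GFI1-KO libraries, and the bars of GFI1-KO replicate 1 are the widest in every panel.

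S1PR1 encodes the Gi-coupled receptor through which S1P activates Rac and strengthens endothelial junctions. It lies on chromosome 1 (101236865 to 101243713, plus strand, GRCh38). The S1PR1 counts were 68 and 113 in WT, against 6 and 301 in the knockout. As CPM these were 30.4 (exact 95% counting interval 23.6 to 38.5) and 47.4 (39.1 to 57) in WT, and 39.7 (14.6 to 86.5) and 134 (119 to 150) in GFI1-KO. GFI1-KO replicate 2 was thus above every other library, GFI1-KO replicate 1 fell inside the WT range, and the WT libraries themselves differed by more than their counting error. In a bulk sample, more cells that express S1PR1 and more S1PR1 RNA per cell cannot be told apart.

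The mean level of S1PR1 was 38.9 ± 12.1 CPM in WT against 86.9 ± 66.6 CPM in the knockout (SD, n = 2 each). The fitted log2 fold change of S1PR1 was 1.50 (SE 0.334, edgeR adjusted p = 0.0424). Without GFI1-KO replicate 2 it was 0.037 (adjusted p = 0.99), and without WT replicate 1 it was 1.13 (adjusted p = 0.426), so the call rests on these libraries. It was also lost with DESeq2 (adjusted p = 0.66), the newer quasi-likelihood dispersion (0.096), upper-quartile scaling (0.0776), scaling by library totals (0.0622) and a filter at a mean of 5 CPM (0.0809), with log2 fold changes of 1.31 to 1.52 in those 5 fits.

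S1PR3, which couples to Gq and G12/13 as well as Gi, lies on chromosome 9 (88990863 to 89005010, plus strand). Its counts were 28 and 52 in WT, against 6 and 102 in the knockout. The S1PR3 levels were 12.5 and 21.8 CPM in WT against 39.7 (14.6 to 86.5) and 45.4 (37 to 55.1) CPM in the knockout. Both GFI1-KO libraries were above both WT libraries, as for 18.6% of all tested genes, although the counting interval of GFI1-KO replicate 1 reaches down to the WT values. The mean was 17.2 ± 6.59 CPM in WT against 42.6 ± 4 CPM in the knockout, a log2 fold change of 1.36 with an SE of 0.359 (edgeR adjusted p = 0.0931). S1PR3 therefore had nearly the same fold change as S1PR1 without passing. Its estimate was also steadier than that of S1PR1, from 1.02 to 1.82 when single libraries were left out. S1PR3 passed with no low-count filter (adjusted p = 0.0129) and without GFI1-KO replicate 1 (1.39, SE 0.331, adjusted p = 0.00198), a fit with a lone knockout library whose spread comes from the WT pair.

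S1PR2, the receptor that signals mainly through G12/13 and is known for opposing Rac, was near the lower limit of detection. It lies on chromosome 19 (10221433 to 10231331, minus strand) and shares 83 of its 3643 exonic bases with DNMT1 on the same strand. Its counts were 7 and 2 in WT, against 3 and 15 in the knockout. The corresponding S1PR2 levels were 3.13 and 0.839 CPM in WT against 19.9 (4.1 to 58.1) and 6.68 (3.74 to 11) CPM in the knockout. Both GFI1-KO values were above both WT values, as for 18.6% of all tested genes, but the higher of them rests on 3 counts. The log2 fold change was 2.02 (SE 0.785, edgeR adjusted p = 0.336). The ratio of pooled counts, which is set mostly by the deep libraries, was 3.86. Its exact 95% counting interval of 1.64 to 9.74 leaves out the spread between replicates. The lymphoid receptor gene S1PR4 had 1 count in all, in WT replicate 2, and S1PR5 had 3, 3, 0 and 2 counts in WT replicates 1 and 2 and GFI1-KO replicates 1 and 2, too few to test.

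S1PR1 supplied most of the receptor reads in the deep libraries of both genotypes. Of the counts at the 5 S1P receptor genes, S1PR1 took 64.2% (exact Clopper-Pearson 95% interval 54.3 to 73.2) and 66.1% (58.5 to 73.1) in WT and 71.7% (67.1 to 75.9) in GFI1-KO replicate 2. In GFI1-KO replicate 1 it took 40% (16.3 to 67.7) of 15 counts. S1PR3 took 26.4% and 30.4% in WT and 40% (16.3 to 67.7) and 24.3% (20.3 to 28.7) in GFI1-KO. The S1PR1 and S1PR3 shares overlapped between the genotypes within their counting intervals, so a shift between these receptors was not detectable at this depth.

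The reference sequence just before the first annotated GENCODE 29 exon is shown for S1PR1 and S1PR3. Among the receptor genes these had the most counts, and among the 8 genes the smallest edgeR adjusted p. The windows come from RefSeq (GRCh38.p14), which held a start site for 6 of the 8 genes, and were trimmed to bases outside any GENCODE 29 exon. For S1PR1 this left the outer 96 of 250 bases, without those nearest the RefSeq start. For S1PR3 the outermost of 2 starts was used. Capitals mark AATC or its reverse complement GATT, the core that GFI1 proteins are known to bind. The letters GATA and the reverse complement TATC, the core for GATA factors, were searched in the same way.
S1PR1 (chr1:101236769-101236864, plus strand): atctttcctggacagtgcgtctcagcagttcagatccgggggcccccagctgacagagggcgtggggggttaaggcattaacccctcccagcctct
S1PR3 (chr9:88990613-88990862, plus strand): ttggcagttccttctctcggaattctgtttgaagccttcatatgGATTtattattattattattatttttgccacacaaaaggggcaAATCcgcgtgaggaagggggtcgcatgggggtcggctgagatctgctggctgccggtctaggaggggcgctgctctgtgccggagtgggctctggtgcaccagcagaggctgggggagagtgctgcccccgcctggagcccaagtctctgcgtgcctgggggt
The S1PR1 window of 96 bases held 0 AATC and 0 GATA cores on either strand. The S1PR3 window of 250 bases held 2 AATC cores, which do not overlap, and 0 GATA cores. The S1PR2 window of 250 bases, searched in the same way and not shown, held 0 AATC and 0 GATA cores. Cores this short are common: AATC was found in 37.1% of all 35116 start-site windows cut to 96 bases and in 64.8% of those cut to 250 bases, and GATA in 24.9% and 45.6%. The matches describe the sequence alone, since binding was not measured here.

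The kinases that make S1P were low in both genotypes. SPHK1, the cytosolic and growth-factor-responsive kinase gene (chromosome 17, 76376584 to 76387860, plus strand), had 7 and 7 counts in WT against 0 and 7 in the knockout. These are 3.13 and 2.94 CPM in WT against 3.12 CPM in replicate 2 of the knockout, while 0 counts in GFI1-KO replicate 1 allows up to 19.9 CPM. The pooled SPHK1 ratio was 0.964 (exact 95% counting interval 0.329 to 2.55), a range that includes both lower and higher levels. SPHK1 shares 59 of 4416 exonic bases with PRPSAP1 on the opposite strand.

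SPHK2, the kinase gene whose product is known to act also in the nucleus and mitochondria, lies on chromosome 19 (48619291 to 48630717, plus strand). It had 27 and 24 counts in WT against 1 and 31 in the knockout, or 12.1 and 10.1 CPM against 6.62 (0.168 to 36.9) and 13.8 (9.38 to 19.6) CPM. The GFI1-KO values lay on either side of the WT values. The log2 fold change of SPHK2 was 0.23 (SE 0.459, edgeR adjusted p = 0.965). Its exons share 661 of 6009 bases with DBP and 246 with RPL18, both on the opposite strand, and the strand setting of the counting is unknown here. Within the deep libraries SPHK2 had 3.86 (1.64 to 10.5), 3.43 (1.43 to 9.42) and 4.43 (1.91 to 11.9) counts for each SPHK1 count in WT replicates 1 and 2 and GFI1-KO replicate 2, ratios that overlap.

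The intracellular enzymes that remove S1P showed smaller values than the receptors. SGPL1, the endoplasmic reticulum lyase whose cleavage is the only irreversible exit from the sphingolipid pathway, lies on chromosome 10 (70815961 to 70881173, plus strand). It had 55 and 55 counts in WT against 6 and 81 in the knockout, or 24.6 and 23.1 CPM against 39.7 (14.6 to 86.5) and 36.1 (28.6 to 44.8) CPM. Both GFI1-KO libraries were above both WT libraries, as for 18.6% of all tested genes, and the WT replicates were close together. The counting interval of GFI1-KO replicate 1 covers the WT values. The mean was 23.8 ± 1.05 CPM in WT against 37.9 ± 2.61 CPM in the knockout, a log2 fold change of 0.62 with an SE of 0.328 (edgeR adjusted p = 0.61) that ranged from 0.59 to 0.75 over 13 alternatives without passing in any.

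SGPP1, the phosphatase gene that returns S1P to sphingosine, lies on chromosome 14 (63684214 to 63728039, minus strand). It had 41 and 49 counts in WT against 2 and 57 in the knockout. The SGPP1 levels were 18.3 and 20.6 CPM in WT against 13.2 (1.6 to 47.9) and 25.4 (19.2 to 32.9) CPM in the knockout, again on either side of WT. Its log2 fold change was 0.28 (SE 0.374, edgeR adjusted p = 0.931). The estimates of SGPP1 and SPHK2 turned to -0.54 and -0.72 without GFI1-KO replicate 2, where each rests on 1 or 2 counts in GFI1-KO.

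SPNS2, the exporter that releases S1P from endothelial cells, was the best measured of the 8 genes. It lies on chromosome 17 (4498838 to 4539035, plus strand) and had 279 and 334 counts in WT against 23 and 326 in the knockout. The SPNS2 levels were 125 and 140 CPM in WT against 152 (96.6 to 229) and 145 (130 to 162) CPM in the knockout. The GFI1-KO values were both above WT, as for 18.6% of all tested genes, but by less than the counting error of the libraries. The log2 fold change of SPNS2 was 0.15 (SE 0.234, edgeR adjusted p = 0.943), and the pooled ratio of 1.1 had an exact 95% counting interval of 0.96 to 1.25. It shares 139 of 4111 exonic bases with MYBBP1A on the opposite strand.

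Per kilobase of exon, the exporter stood above all other S1P genes in every library and S1PR1 came next. In WT the mean level of SPNS2 was 32.2 ± 2.68 CPM per kilobase, followed by S1PR1 at 7.45 ± 2.31 and SGPP1 at 5.87 ± 0.481 (SD, n = 2). SGPL1 was at 3.18 ± 0.14, SPHK2 at 1.84 ± 0.234 and S1PR3 at 1.26 ± 0.485 CPM per kilobase. SPHK1 at 0.687 ± 0.0302 and S1PR2 at 0.544 ± 0.444 CPM per kilobase were lowest. The WT libraries overlapped between the neighbours S1PR1 and SGPP1 and between SPHK1 and S1PR2, and not between the other neighbours in this order. In GFI1-KO the levels were 36.2 ± 1.25 for SPNS2 and 16.6 ± 12.8 CPM per kilobase for S1PR1. The order by GFI1-KO mean was SPNS2, S1PR1, SGPP1, SGPL1, S1PR2, S1PR3, SPHK2 and SPHK1. Every pair of neighbours from S1PR1 down to S1PR3 in that order overlapped. The WT order was the same when the longest transcript replaced the union of exons as the length, which raised S1PR1 in WT to 13.4 CPM per kilobase. In the GFI1-KO order, SGPP1 changed places with SGPL1 and S1PR2 with S1PR3 under that length.

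**Figure D2:**
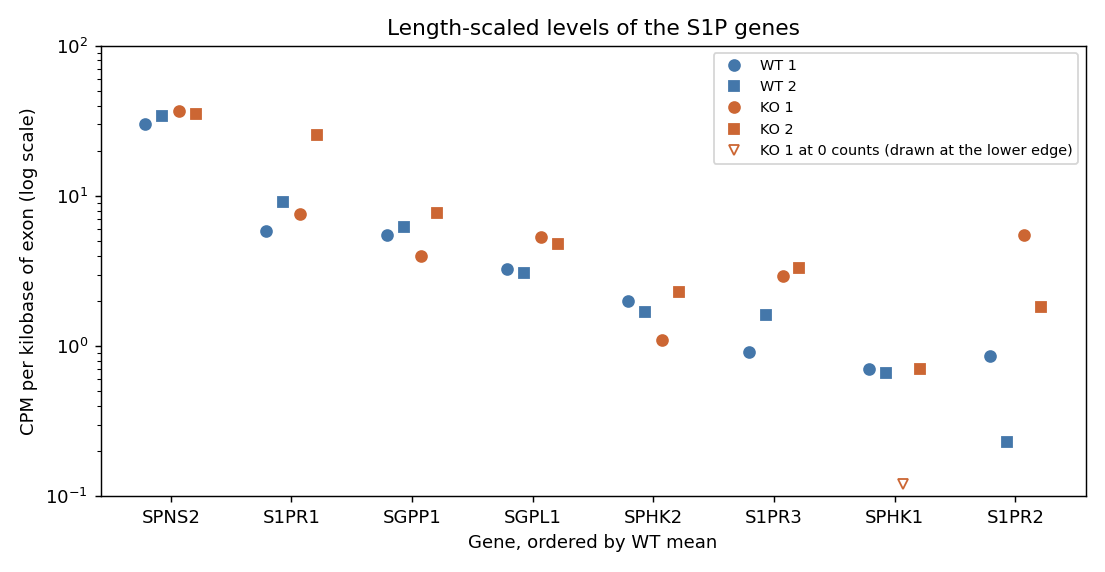
CPM per kilobase of exon (log axis) for the 8 S1P genes ordered by their WT mean, with a point for each library (WT in blue, GFI1-KO in orange; circles replicate 1, squares replicate 2). SPNS2 lies between 30.3 and 37.1 in all 4 libraries, and the open triangle marks SPHK1 at 0 counts in GFI1-KO replicate 1.

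Ratios between genes of the same library do not depend on any scaling between libraries. For each SPNS2 count there were 0.244 (exact 95% interval 0.184 to 0.319) and 0.338 (0.271 to 0.42) S1PR1 counts in WT, and 0.261 (0.0869 to 0.659) and 0.923 (0.787 to 1.08) in GFI1-KO. S1PR1 relative to the exporter was thus high in GFI1-KO replicate 2 and inside the WT range in GFI1-KO replicate 1. For each SPNS2 count there were 0.1 (0.0655 to 0.148) and 0.156 (0.114 to 0.209) S1PR3 counts in WT and 0.261 (0.0869 to 0.659) and 0.313 (0.248 to 0.392) in GFI1-KO. The S1PR3 ratio was higher in both GFI1-KO libraries than in either WT library, with the interval of the shallow library reaching into the WT range. With 2 libraries a group, an exact two-sided permutation test cannot give a p under 0.333, so no test was made on these ratios.

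**Figure D3:**
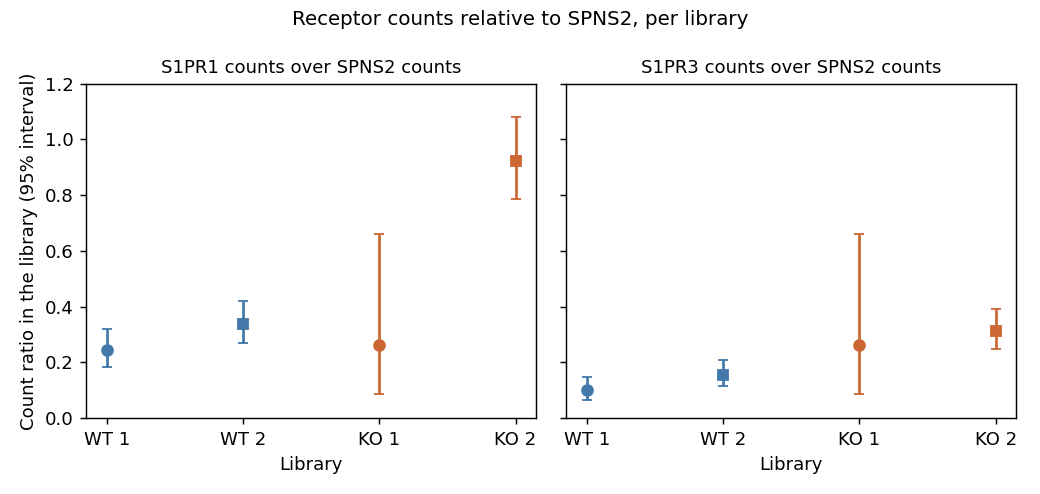
Counts of S1PR1 (left) and S1PR3 (right) divided by SPNS2 counts in the same library (vertical axis) for the 4 libraries, with exact 95% counting intervals (WT in blue, GFI1-KO in orange). The S1PR1 ratio of 0.923 in GFI1-KO replicate 2 stands apart from the other 3 libraries, while the S1PR3 ratios of both GFI1-KO libraries lie above both WT ratios.

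Among related genes, the cell-surface lipid phosphatase PLPP3 rose. PLPP3 dephosphorylates extracellular S1P and lysophosphatidic acid and so ends signalling outside the cell. It had 77 and 71 counts in WT against 13 and 196 in the knockout, or 34.4 and 29.8 CPM against 86.1 and 87.2 CPM. Both GFI1-KO libraries were above both WT libraries, as for 18.6% of all tested genes. The GFI1-KO values were nearly equal, although that of replicate 1 rests on 13 counts, where 1 count equals 6.62 CPM. The log2 fold change of PLPP3 was 1.44 (SE 0.258, edgeR adjusted p = 0.0115), with values from 1.35 to 1.55 over 13 alternatives run for it. It passed in 9 of them and was lost with DESeq2 (adjusted p = 0.217) and when WT replicate 1 (0.0843), WT replicate 2 (0.182) or replicate 2 of the knockout (0.0905) was left out.

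**Figure D4:**
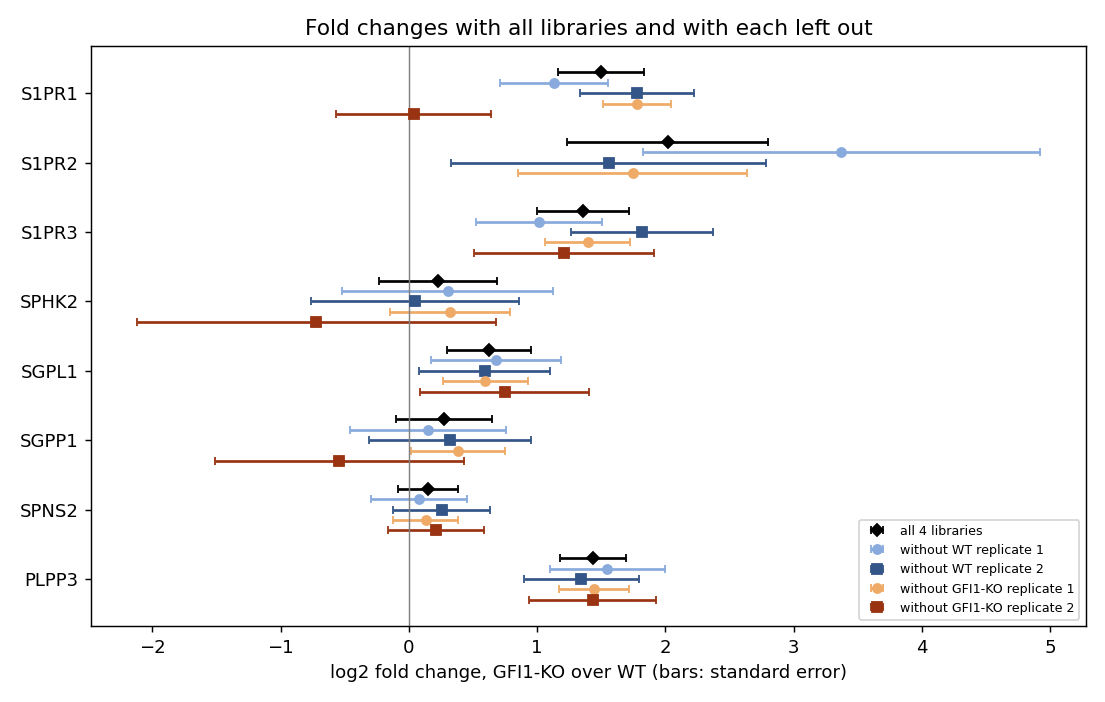
Log2 fold change of GFI1-KO over WT (horizontal axis, bars 1 standard error) for the 7 tested S1P genes and PLPP3, from all 4 libraries (black) and with each library left out in turn. S1PR1 moves to 0.037 without GFI1-KO replicate 2, while PLPP3 and S1PR3 stay above 1 throughout; S1PR2 could not be tested without GFI1-KO replicate 2.

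PLPP3 belongs to a list of 10 other S1P receptors, phosphatases, carriers and regulators, of which 5 were tested, 1 rose and 0 fell, with a median log2 fold change of 0.486; 0.773% of all tested genes were called higher. Over the 5 related lists, 1 of 54 tested genes passed. CD69, which binds S1PR1 and removes it from the cell surface, was at 4.47 and 31.9 CPM in WT against 6.62 and 50.7 CPM in the knockout, on 10 and 76 against 1 and 114 counts. The groups overlapped, and the single count in GFI1-KO replicate 1 allows 0.168 to 36.9 CPM. Its log2 fold change was 1.21 (SE 0.584, edgeR adjusted p = 0.554). The phosphatase gene PLPP1 was at 0.49 (adjusted p = 0.871), the blood-cell S1P exporter gene MFSD2B at -0.31 (adjusted p = 0.967), and APOM, the gene of the lipoprotein carrier of S1P in plasma, at -0.19 (adjusted p = 0.970). SGPP2, the second intracellular S1P phosphatase gene, had 0 and 1 counts in WT against 0 and 2 in the knockout.

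Upstream, the genes that supply ceramide and sphingosine held 0 calls. Of 18 genes of de novo ceramide synthesis, 14 were tested and 0 passed with edgeR, limma-voom or DESeq2. DESeq2 gave an adjusted p for 12 of the 14. An unadjusted edgeR p under 0.05 was found for 2, in opposite directions, beside 9.35% of all tested genes. The median log2 fold change of the 14 was 0.158. SPTLC2, a catalytic subunit gene of serine palmitoyltransferase, the first enzyme of the pathway, was at 63.4 and 58.8 CPM in WT against 132 and 81.9 CPM in the knockout (a log2 difference of 0.62, SE 0.273, edgeR adjusted p = 0.473). CERS2, the ceramide synthase gene for very long acyl chains, was at 241 and 250 CPM in WT against 166 and 178 CPM in the knockout (a difference of -0.49, SE 0.223, adjusted p = 0.501). Of 16 genes of ceramide breakdown and complex sphingolipids, 12 were tested and 0 passed with any of these tools. DESeq2 gave an adjusted p for 9 of the 12. An unadjusted edgeR p under 0.05 was found for 0 of the 12, and the median log2 fold change was -0.154. The smallest adjusted p in that list were those of GALC, the lysosomal galactosylceramidase gene, at a log2 fold change of -0.31 (adjusted p = 0.845), the ceramide kinase gene CERK at 0.25 (0.864) and the sphingomyelin synthase gene SGMS1 at -0.40 (0.875). The acid ceramidase gene ASAH1, whose product releases sphingosine in lysosomes, was at a log2 fold change of -0.34 with an SE of 0.339 (adjusted p = 0.881).

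Downstream, G proteins and effectors coupled to the receptors held 0 calls. All 18 were tested, 0 passed with edgeR, limma-voom or DESeq2, and 2 had an unadjusted p under 0.05, a share near the 9.35% of all tested genes. The 18 had a median log2 fold change of 0.285 and 15 were above 0, beside a median of -0.0235 and 47.5% above 0 over all tested genes. In 10 of the 18 both GFI1-KO libraries were above both WT libraries, beside 18.6% of all tested genes, and in 1 both were below, beside 22.7%. ARHGEF12, an effector gene that acts after G12/13, was at 351 and 348 CPM in WT against 596 and 475 CPM in the knockout (a log2 difference of 0.58, SE 0.215, edgeR adjusted p = 0.305). GNAI1, a Gi alpha subunit gene, was at 138 and 170 CPM in WT against 166 and 245 CPM in the knockout (a difference of 0.51, SE 0.24, adjusted p = 0.53). The summed level of the endothelial markers, mostly from KDR, was also higher in both GFI1-KO libraries than in WT, as given above. Its part in these values and in those of the receptors was not tested.

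Lysophosphatidic acid receptors LPAR1 to LPAR3 belong to the same receptor family as the S1P receptors. Of 7 genes in a list of lysophosphatidic acid receptors, which includes the autotaxin gene ENPP2, 5 were tested. With edgeR, limma-voom or DESeq2 0 passed, and DESeq2 gave an adjusted p for 4 of the 5. An unadjusted edgeR p under 0.05 was found for 1, and the tested genes had a median log2 fold change of 0.285. LPAR1 was at 17 and 10.1 CPM in WT against 26.5 and 28 CPM in the knockout (a log2 difference of 1.04, SE 0.4, edgeR adjusted p = 0.337).

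**Figure D5:**
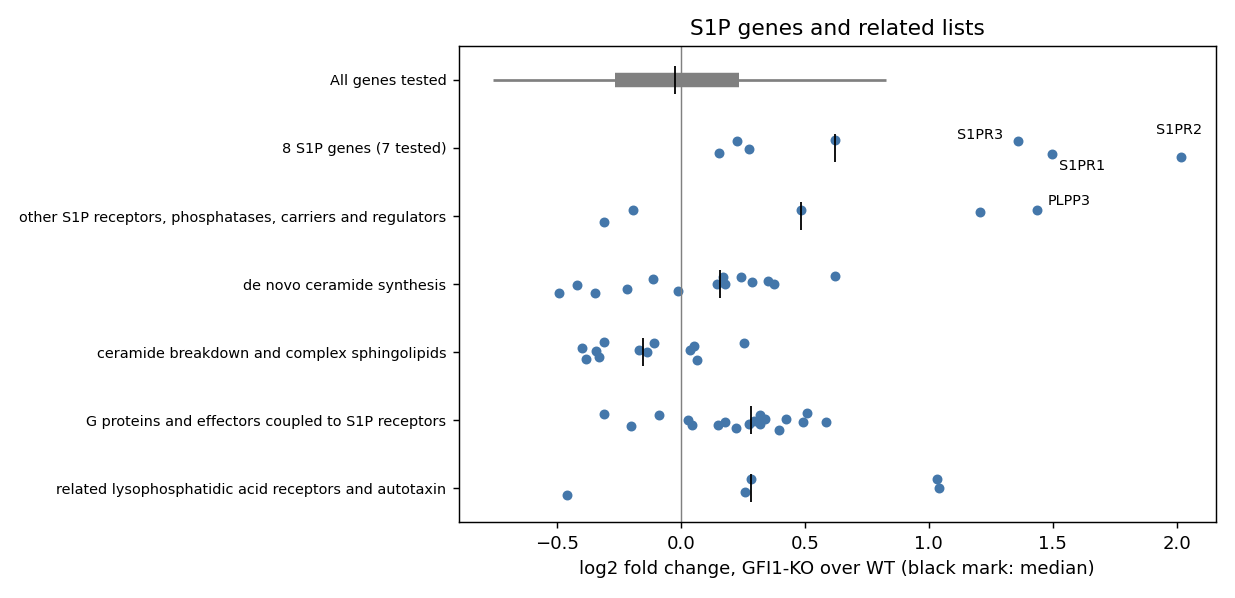
Log2 fold change of GFI1-KO over WT (horizontal axis) for the tested S1P genes and for each related list, with a point for each gene and a black mark at the median. The grey bar gives the 5th to 95th (line) and 25th to 75th (box) percentiles of all 11380 genes tested; S1PR1, S1PR2, S1PR3, PLPP3, CD69, LPAR1 and ENPP2 lie to the right of its 95th percentile of 0.827.

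The genes whose profile over the 4 libraries was nearest to that of S1PR1 were TNC, CNTNAP1, NETO2, AMOT and MAPK11. Likeness was the root mean square difference of log2(CPM + 1) values, each centred on its own mean, among 7994 other tested genes averaging at least 20 CPM. It was 0.0943 for TNC, which encodes the matrix glycoprotein tenascin C, and 0.23 to 0.251 for the other 4. TNC was at 22.8 and 31.9 CPM in WT against 26.5 and 105 CPM in the knockout. AMOT, which encodes the junction and motility protein angiomotin, was at 22.3 and 43.2 CPM in WT against 39.7 and 85.9 CPM in the knockout. In all 5 genes the highest value was that of GFI1-KO replicate 2, which follows from choosing them by likeness to S1PR1. With 4 libraries such likeness is a description only.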

How the data were processed

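RNA sequencing of 4 libraries was used, 2 WT and 2 GFI1-KO, grouped by their titles. Trizol-extracted total RNA was made into Illumina TruSeq libraries, per the labels' protocols. The authors deposited unnormalized whole-number read counts, a column per library, per the file headers. The submitters' processing notes name HTSeq 0.6.0, HISAT2 2.0.4, DESeq 1.18.1 and SAMtools 1.3.1 and the build hg38 (GRCh38), without roles; the annotation and strand setting are not stated there. Of 19912 identifiers, 19902 were matched to GENCODE release 29.

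The S1P genes, the related lists and the tests were chosen with earlier results of these data known. All genes were tested with edgeR 4.0.16 under R 4.3.3 (filterByExpr with a minimum count of 10 and minimum total of 15, TMM scaling, glmQLFit in its default form and glmQLFTest, genotype as the only term), with Benjamini-Hochberg adjustment over 11380 genes. Fold changes use a prior count of 0.125. Separate cultures are not stated in the labels, so the spread behind each p-value may be technical; within each group the replicates differed by more than sampling noise (chi-square per degree of freedom 4.86 in WT and 2.27 in GFI1-KO). Intervals cover counting error at 95%, without molecular identifiers. CPM per kilobase uses the union of annotated exons. Alternatives were limma-voom (limma 3.58.1), DESeq2 1.42.0, the newer dispersion form, 3 other scalings, 2 other filters, leaving out each library, and a replicate block; those for PLPP3 were added after seeing the data. Named related genes are those with the smallest adjusted p in each list, up to 4, and any that passed; the 5 nearest in profile to S1PR1 were also named. APOM, the untested S1PR4, S1PR5 and SGPP2, and single marker genes were named outside this rule, after their values were seen. The fit was tested on simulated data. Protein sequences were not used here.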

Additional observations from a re-analysis of the deposited data

How the results depend on the processing

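The number of S1P genes called was 1 and fell to 0 with DESeq2, the newer dispersion, upper-quartile scaling, library totals and a mean of at least 5 CPM; it was 2 with no low-count filter, and 0 to 2 when single libraries were left out. Over all genes, 109 were called (88 higher, 21 lower), against 33 with DESeq2, 58 with the newer dispersion, 58 with upper-quartile scaling, 72 with library totals, 305 with no low-count filter, 50 at a mean of at least 5 CPM, and 62 to 373 when single libraries were left out (62 when WT replicate 1 was dropped, 274 when GFI1-KO replicate 2 was and 373 when GFI1-KO replicate 1 was); the causes were not tested. S1PR1 passed in 6 of 13 alternatives, S1PR3 in 2 of 13, and S1PR2 in 0 of 12. DESeq2 gave an adjusted p for 4 of the 7 tested S1P genes. S1PR2, SPHK2 and SGPP1 had none and so could not pass with DESeq2. Log2 fold changes of S1PR1, S1PR2, S1PR3, SGPL1 and SPNS2 stayed above 0 in each alternative that gave a value. Without GFI1-KO replicate 2, SPHK2 reversed to -0.72 and SGPP1 to -0.54; their values with single libraries left out ran up to 0.32 and 0.38, and neither passed in any of 13. Other scalings moved the median of all genes by at most 0.026 on the log2 scale.

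The genotypes share replicate numbers 1 and 2, but the labels tie them to no common culture, and the deviations of same-numbered libraries correlated at 0.112 over genes. With the replicate block 327 genes were called and S1PR1 was the 1 S1P gene among them (log2 fold change 1.26, adjusted p = 0.00123). The depth of GFI1-KO replicate 1 limits each S1P gene to 0 to 23 counts there.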
